A study of Sus scrofa with 8 samples.

Results

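Solitary chemosensory cells and tuft cells are rare epithelial cells that carry the signalling proteins of taste, and 10 genes that are known for them were followed in the olfactory epithelium (OE) of sows. The genes were chosen by their pig gene name (Ensembl annotation of Sscrofa11.1), although earlier results of these data were known. They were TAS1R3, GNAT3, PLCB2, TRPM5, POU2F3, ALOX5, ALOX5AP, IL25, AVIL and SH2D6. Of these, 8 matched an identifier among the 22516 genes of the files, and all 8 had counts and were among the 21318 genes tested. No identifier matched IL25 or SH2D6, which are not analysed here. The 4 sows were offspring of Landrace boars and Rongchang pig sows, aged 8 months. Boarmate, whose main component is the boar pheromone androstenone, was sprayed onto the nasal cavity of 2 sows, and the other 2 received no solution. The left and the right OE were taken 30 min later, and each side made its own RNA-seq library, which gave 4 libraries of the control group and 4 of the androstenone treatment group. The sources used here do not tell which libraries share a sow, so the p-values below measure the spread between libraries, with only 2 animals behind each group.

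In a solitary chemosensory cell or tuft cell, a taste-type receptor activates a G protein of the gustducin type, phospholipase C releases calcium from internal stores, and the calcium opens the TRPM5 cation channel. The transcription factor POU2F3 is needed for these cells to form. Once activated they release leukotrienes, acetylcholine and IL25, which act on nerve fibres and on immune cells. In the nose they lie scattered in the respiratory and olfactory epithelium, and in the OE of mice TRPM5 is also carried by microvillous cells and by some olfactory sensory neurons. Several of the genes are not particular to these cells, since PLCB2, ALOX5 and ALOX5AP are also active in leukocytes. In bulk RNA of a tissue, fewer cells of a type and less RNA per cell cannot be told apart.

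Control 1 held 4178330 deposited counts, while the other 7 libraries held between 81580146 and 100685566. The paper lists a number of clean reads for its control 1 within the range of its other libraries. The count total thus does not measure sequencing depth, and the reason for the low total was not tested. The low genes rested on very few counts in control 1. A count of 0 allowed up to 0.718 CPM there (counts scaled to library size, here the value of 3 counts) and at most 0.0368 CPM elsewhere. These limits cover counting error only and use the unscaled library total. In control 4 the 10 genes with most counts held 29.4% of the total, against 6.57% to 9.02% in the other libraries. The CPM of single genes use the library total scaled by edgeR's TMM factor, which was 0.687 in control 4 and 1.17 in control 1. On that scale the limit for a count of 0 is higher in control 4 and lower in control 1. Levels of different genes are compared in TPM, which scale the counts by transcript length as well as by library.

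All 8 genes were detected in every library, at levels that spanned from ALOX5AP at the top to GNAT3 at the bottom. ALOX5AP had a mean of 10.7 ± 4.44 TPM (SD, n = 8 libraries), PLCB2 of 7.87 ± 3.43 TPM and TAS1R3 of 7.43 ± 2.09 TPM. The middle of the order was held by AVIL at 2.66 ± 0.852 TPM, ALOX5 at 1.89 ± 0.549 TPM and POU2F3 at 1.09 ± 0.317 TPM. The channel and the G protein subunit that mark the taste cascade were lowest, TRPM5 at 0.324 ± 0.35 TPM and GNAT3 at 0.176 ± 0.0723 TPM. TRPM5 exceeded 1 TPM only in androstenone 2 and GNAT3 in no library, so that these markers of the cell type were present but scarce. Some neighbours in this order did not differ beyond their spread. The log2 ratio of ALOX5AP to PLCB2 was 0.43 ± 0.59 (SD over libraries), that of PLCB2 to TAS1R3 0.02 ± 0.56 and that of TRPM5 to GNAT3 0.44 ± 0.90. The steps from TAS1R3 to AVIL, from ALOX5 to POU2F3 and from POU2F3 to TRPM5 were seen in 8 of 8 libraries, with log2 ratios of 1.48 ± 0.44, 0.80 ± 0.46 and 2.23 ± 1.10. AVIL lay above ALOX5 in 7 of 8 libraries, by a log2 ratio of 0.49 ± 0.42.

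**Figure D1:**
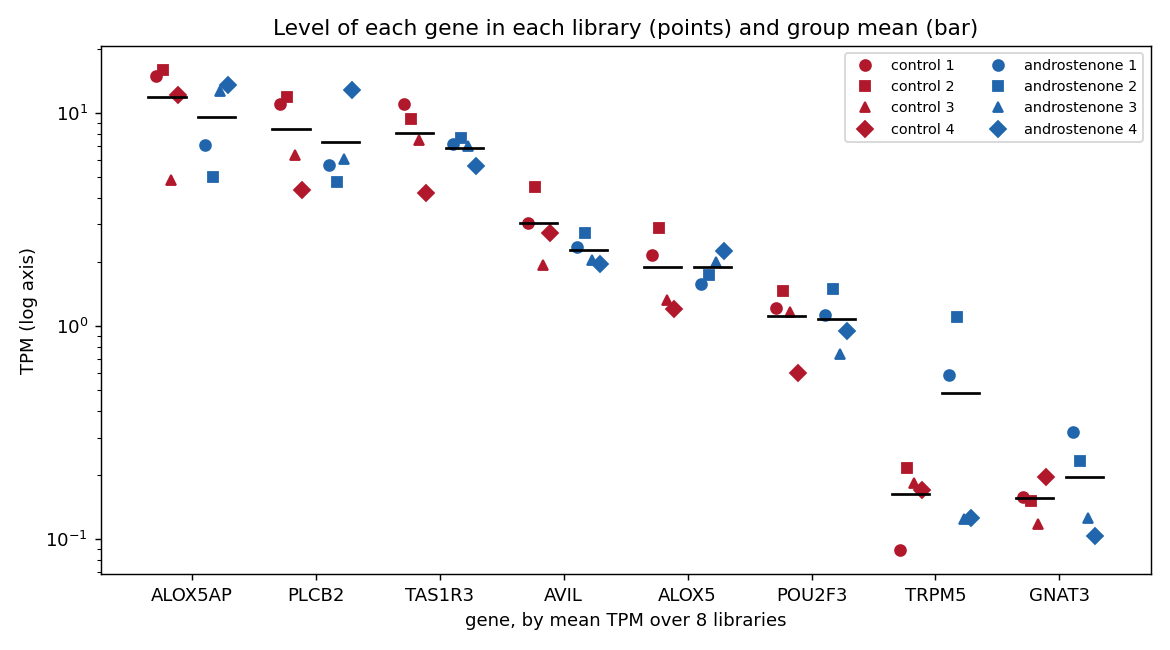
Level in TPM (log axis) of the 8 genes in each library, with control libraries in red, androstenone libraries in blue and a black bar at each group's mean. TRPM5 is the gene in which androstenone 1 and androstenone 2, at 0.591 and 1.1 TPM, stand far above the other libraries, which lie between 0.0889 and 0.216 TPM.

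No gene of the set passed the test between the groups, and the groups overlapped in all 8. With an unadjusted p below 0.05 and a log2 fold change of 1 or more in either direction (the cutoff below), edgeR's quasi-likelihood test called 0 of 8 genes higher and 0 of 8 lower. Over all genes tested, 6.42% passed this cutoff, 2.04% as higher and 4.38% as lower. An unadjusted p below 0.05 at any fold change was reached by 0 of the 8 genes and by 11.3% of all genes. After Benjamini-Hochberg adjustment 0 of 8 passed, as did 0% of all genes (0 with limma voom, 200 with edgeR's likelihood ratio test and 670 with DESeq2), and the smallest adjusted p among the 8 was 0.467. The fitted log2 fold change was above 0 in 4 genes and below 0 in 4, with a median of 0.03 against -0.02 over all genes. Groups did not overlap in 0 of the 8 genes, against 6.53% of all genes.

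TAS1R3 (ENSSSCG00000003341, chromosome 6, 63613536 to 63617831) encodes the shared subunit of the sweet and umami receptors, and was the steadiest of the 8. It lay at 44.0, 37.1, 30.2 and 21.7 CPM in control 1 to 4 and at 34.2, 34.6, 32.2 and 24.7 CPM in androstenone 1 to 4. The control libraries thus enclosed the androstenone libraries on both sides. The group means were 33.2 ± 9.52 and 31.4 ± 4.61 CPM (SD, n = 4 libraries each). The log2 fold change was -0.08 (SE 0.24, 95% interval -0.62 to 0.46; edgeR, adjusted p = 0.913). Over the 8 libraries its log2 CPM had an SD of 0.32, and 29.6% of genes had a smaller one. Its span overlaps DVL1, a Wnt signalling gene that lay at 52.7 to 88 TPM, and the sources used here do not say whether strand was used in counting, so reads of the shared stretch cannot be told apart.

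GNAT3 (ENSSSCG00000015406, chromosome 9, 99848406 to 99910236), the alpha subunit of gustducin, was the lowest of the 8 genes. It had 1, 18, 15 and 22 counts in control 1 to 4 and 48, 34, 17 and 15 counts in androstenone 1 to 4. As CPM these were 0.205, 0.196, 0.157 and 0.331 in control 1 to 4 and 0.503, 0.349, 0.189 and 0.149 in androstenone 1 to 4. Androstenone 1 and androstenone 2 were the highest libraries, although androstenone 2 exceeded control 4 only by a factor of 1.05, and androstenone 4 was the lowest. The single count of control 1 allowed 0.0052 to 1.14 CPM (95% exact Poisson interval, counting error only), which covers all 7 other libraries. Androstenone against control gave a log2 fold change of 0.40 (SE 0.52, 95% interval -0.78 to 1.59; edgeR, adjusted p = 0.759), and it was 0.03 without androstenone 1 and 0.71 without control 4.

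PLCB2 (ENSSSCG00000004779, chromosome 1, 131005408 to 131031864) encodes the phospholipase that taste receptor cells share with blood cells. It lay at 29.2, 31.2, 17.2 and 14.9 CPM in control 1 to 4 and at 18.3, 14.4, 18.6 and 37.6 CPM in androstenone 1 to 4. Androstenone 4, control 2 and control 1 were high and the other 5 libraries lay close together at a lower level, so that the high libraries came from both groups. Its log2 fold change was -0.05 (SE 0.37, 95% interval -0.90 to 0.79; edgeR, adjusted p = 0.963).

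TRPM5 (ENSSSCG00000039644, chromosome 2, 1646597 to 1664935), the cation channel at the end of the cascade, varied most. It had 1, 44, 40 and 33 counts in control 1 to 4 and 153, 275, 29 and 31 counts in androstenone 1 to 4. As CPM these were 0.205, 0.48, 0.417 and 0.496 in control 1 to 4 and 1.6, 2.82, 0.322 and 0.308 in androstenone 1 to 4. The androstenone treatment group was thus split, with androstenone 1 and 2 above every control library and androstenone 3 and 4 below 3 of the 4. Each sow gave 2 libraries, and the sources used here do not tell which libraries share a sow. This split and a difference between the 2 treated sows therefore cannot be told apart. The lower of the high libraries was 3.23 times the highest of the other 6. The group means were 0.4 ± 0.134 and 1.26 ± 1.2 CPM (SD, n = 4 libraries each), and the SD of log2 CPM over the 8 libraries was 1.23, with 88.2% of genes at a smaller one. Between the groups the log2 fold change was 1.55 (SE 0.75, 95% interval -0.16 to 3.27; edgeR, adjusted p = 0.467).

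The call of TRPM5 depended on the test and on single libraries. It passed the cutoff with edgeR's likelihood ratio test, which called 9.28% of all genes, and with DESeq2, which called 6.98%. It did not pass with limma voom, at a log2 fold change of 0.89, nor on log2(TPM + 0.1), at 0.80, or log2(TPM + 1), at 0.30. It also passed without androstenone 3, with a log2 fold change of 1.87, and without androstenone 4, with 1.88. Without androstenone 2 the fold change was 0.77 and without androstenone 1 it was 1.42, past the cutoff in neither case. Without both of the high libraries, an alternative chosen after the values were seen, it was -0.46. Leaving out a single library keeps the other library of the same sow in the fit.

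POU2F3 (ENSSSCG00000028237, chromosome 9, 47376852 to 47458265), the transcription factor on which tuft cells depend, did not have androstenone 1 and 2 above every control library. It lay at 3.29, 4.02, 3.28 and 2.15 CPM in control 1 to 4 and at 3.77, 4.74, 2.37 and 2.91 CPM in androstenone 1 to 4. Androstenone 2 was the highest and control 4 the lowest library, with the rest of both groups between them. The treated libraries still divided as for TRPM5, with a smaller gap. Androstenone 1 and 2 lay above androstenone 3 and 4, which lay below control 1, 2 and 3, while androstenone 1 lay below control 2. The group means were 3.18 ± 0.77 and 3.44 ± 1.04 CPM (SD, n = 4 libraries each). The log2 fold change was 0.12 (SE 0.31, 95% interval -0.59 to 0.83; edgeR, adjusted p = 0.896).

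Leukotriene synthesis needs, among others, the lipoxygenase ALOX5 and ALOX5AP, the membrane protein that presents arachidonic acid to it. ALOX5 (ENSSSCG00000010404, chromosome 14, 90859209 to 90907084) lay at 3.7, 4.94, 2.34 and 2.66 CPM in control 1 to 4 and at 3.28, 3.43, 3.96 and 4.28 CPM in androstenone 1 to 4. All 4 androstenone libraries fell inside the control range, and the log2 fold change was 0.14 (SE 0.29, 95% interval -0.53 to 0.81; edgeR, adjusted p = 0.865). ALOX5AP (ENSSSCG00000009330, chromosome 11, 7371328 to 7438111) lay at 5.96, 6.3, 1.97 and 6.26 CPM in control 1 to 4 and at 3.39, 2.3, 5.79 and 5.95 CPM in androstenone 1 to 4. Control 3, androstenone 2 and androstenone 1 were low and the other 5 libraries were close to each other. The log2 fold change of ALOX5AP was -0.23 (SE 0.45, 95% interval -1.26 to 0.81; edgeR, adjusted p = 0.854). ALOX5 and ALOX5AP did not share an order of libraries, since control 4 was among the highest for ALOX5AP and among the lowest for ALOX5.

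AVIL (ENSSSCG00000029571, chromosome 5, 23087946 to 23110602) encodes advillin, an actin-binding protein of tuft cell microvilli that sensory neurons also make. It lay at 5.75, 8.6, 3.8 and 6.77 CPM in control 1 to 4 and at 5.46, 6.02, 4.52 and 4.15 CPM in androstenone 1 to 4. Control 2 held the highest and control 3 the lowest value. The 4 of 5 markers of sensory nerve fibres with an identifier summed to 0.353 to 1.61 TPM in the control libraries and 0.583 to 0.839 TPM in the androstenone libraries, while CALCA matched no identifier, and their part in the AVIL values was not tested. Androstenone against control gave a log2 fold change of -0.31 (SE 0.29, 95% interval -0.98 to 0.36; edgeR, adjusted p = 0.682).

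**Figure D2:**
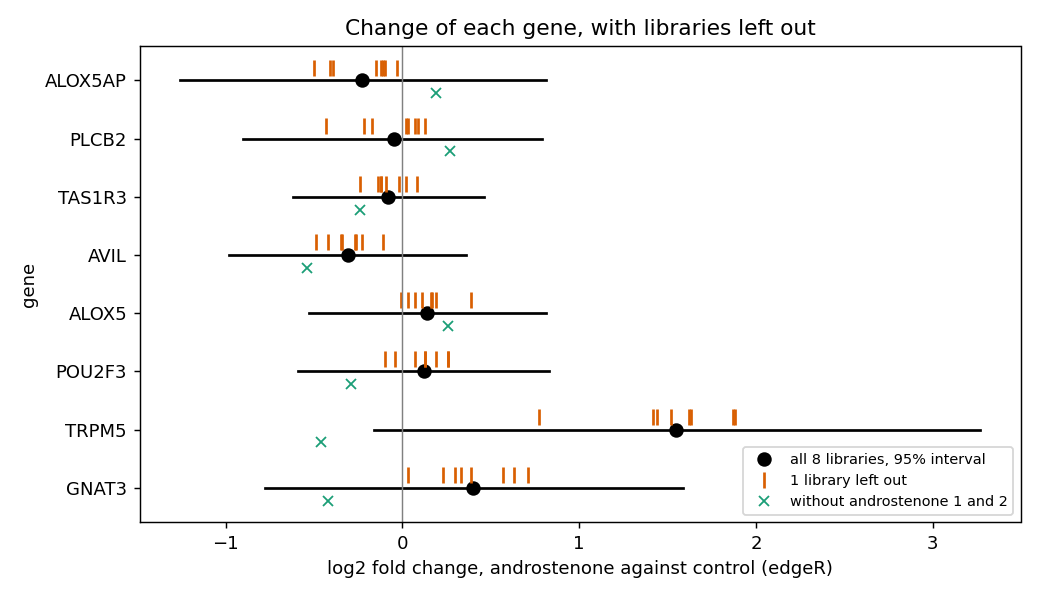
Log2 fold change of the 8 genes, androstenone against control, from edgeR: the black point and line give the estimate from all 8 libraries with its 95% interval, orange ticks the estimates with each library left out in turn, and green crosses the estimate without androstenone 1 and 2. Every interval crosses 0, and TRPM5 moves from 1.55 to -0.46 without androstenone 1 and 2.

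The 8 genes did not follow a common pattern over the libraries. The difference between patterns was measured as the root mean square difference of log2 CPM, each gene centred on its own mean over the 8 libraries, and is given as a description. The gene of the set nearest to TRPM5 was GNAT3, at 0.82, which put GNAT3 at rank 520 of 14672 named genes. The most alike were POU2F3 and TAS1R3, at 0.29, followed by PLCB2 and ALOX5, at 0.35. The least alike were TRPM5 and ALOX5AP, at 1.63.

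The named genes with a pattern nearest to TRPM5 were FIBCD1 at 0.29, NR4A3 at 0.41, CHRNA6 at 0.42, NICOL1 at 0.43 and HAPLN4 at 0.44. FIBCD1, which encodes a chitin-binding membrane protein, lay at 1.48 and 1.79 CPM in androstenone 1 and 2 and between 0.205 and 0.344 CPM in the other 6 libraries. NR4A3, an immediate early gene that encodes a nuclear receptor, lay at 14.1 and 17.8 CPM in androstenone 1 and 2 and between 2.47 and 7.17 CPM elsewhere. The list changed without control 1, where the 1 count of TRPM5 allowed 0.0052 to 1.14 CPM. Without that library the nearest were GC, FIBCD1, YPEL1, SPTBN4 and ENTREP1, of which 1 was among the first 5. Androstenone 1 and 2 stood above the other 6 libraries in 15% of the 18360 genes with enough counts for this measure, and by at least 3-fold in 0.463%.

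Few markers of other cell types shared the split of TRPM5, apart from general epithelial genes. In CPM, androstenone 1 and 2 stood above the other 6 libraries in 4 of 4 epithelial markers, 2 of 8 markers of respiratory ciliated cells and 1 of 9 markers of olfactory sensory neurons, against 15% of the genes with enough counts. The margin was narrow for EPCAM, at 383 CPM in androstenone 1 and 380 CPM in control 3, and for CDH1, at 747 and 682 CPM. In TPM, EPCAM and CDH1 were higher in control 3, at 369 and 255 TPM, than in androstenone 1, at 315 and 237 TPM. KRT8 and KRT18 kept the split in TPM. Of the remaining lists, 1 of 11 myeloid, 1 of 3 ionocyte, 0 of 4 mast cell, 0 of 6 lymphocyte and 0 of 4 nerve fibre markers had this split. The epithelial markers EPCAM, KRT8, KRT18 and CDH1 summed to 2324 and 2465 TPM in androstenone 1 and 2, 1486 and 1010 TPM in androstenone 3 and 4, and 2265 TPM in control 3, where TRPM5 was low. The ciliated cell markers summed to 982 and 1181 TPM in androstenone 1 and 2 but to more, 1212 TPM, in control 3. Of the neuron markers, CNGA2, a channel subunit of olfactory transduction, lay at 12.2 and 11.7 CPM in androstenone 1 and 2 and at most at 3.7 CPM elsewhere. GNAL, the G protein subunit of the same cascade, went the other way, with 1.46 and 2.05 CPM in androstenone 1 and 2 and 7.14 to 22 CPM in the other 6 libraries. The neuron marker CNGA4 also lay lower in androstenone 1 and 2, at 0.335 and 0.185 CPM against 0.411 to 1.7 CPM elsewhere. Its 0.411 CPM was that of control 1, from 2 counts. ANO2 was low in androstenone 1 and 2, at 52.4 and 19.3 CPM, and in control 3, at 19 CPM. The neuron sum, 181 and 186 TPM in androstenone 1 and 2 and 216 TPM in control 3, was mostly STOML3, at 155, 163 and 190 TPM in these libraries. Of the 9 neuron markers, only GAP43 passed the cutoff between the groups, as lower, with a log2 fold change of -1.05 (SE 0.42; edgeR, adjusted p = 0.421). No marker with an identifier was at 0 in all libraries, while OMP and KRT5 matched no identifier. The part of these cell types in the TRPM5 values was not tested.

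**Figure D3:**
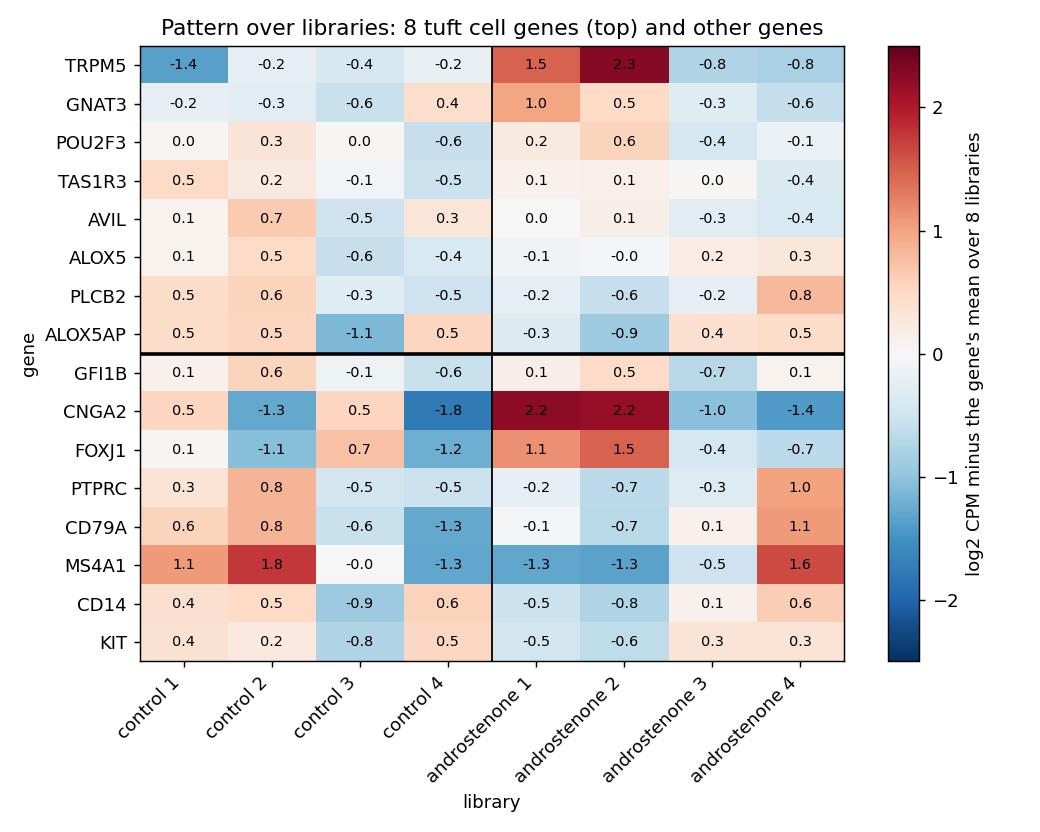
Log2 CPM of each gene minus its mean over the 8 libraries (red above, blue below), with the 8 tuft cell genes above the thick line and other genes below it. TRPM5 and CNGA2 share high values in androstenone 1 and 2, though CNGA2 was the only 1 of 9 olfactory neuron markers with this split. GFI1B runs with POU2F3, PTPRC and CD79A with PLCB2, and CD14 and KIT with ALOX5AP.

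POU2F3 had as its nearest named genes YBX2 at 0.10, GTPBP3 at 0.12, TKFC at 0.13, DMGDH at 0.15 and PICK1 at 0.16, of which 2 were among the first 5 without control 1. GFI1B, a transcription factor of tuft cells and of blood cells, came at rank 7 of 14672 named genes with 0.17; this gene was singled out after its values were seen. GFI1B lay at 1.44, 1.99, 1.22 and 0.902 CPM in control 1 to 4 and at 1.49, 1.88, 0.822 and 1.43 CPM in androstenone 1 to 4. Its level of 0.938 TPM over the 8 libraries was near the 1.09 TPM of POU2F3.

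PLCB2 ran with most lymphocyte markers, and its neighbours too were singled out after their values were seen. The named gene nearest to PLCB2 was ARHGAP30, a regulator of small GTPases, at 0.08, with CD40, HLA-DOB and WAS, all genes of immune cells, among the first 5. PTPRC, the common leukocyte antigen, was at 0.15 and rank 11. The 6 lymphocyte markers summed to 573, 799, 261 and 133 TPM in control 1 to 4 and 262, 192, 304 and 772 TPM in androstenone 1 to 4. The 3 libraries with the highest sums, control 2, androstenone 4 and control 1, were the 3 with the highest PLCB2. These 3 libraries lay above all others, in whatever order, in 5 of the 6 markers, against 4.32% of the genes with enough counts. They did not in CD3E, a T cell gene that was higher in androstenone 1, at 46.8 CPM, than in control 2, at 37 CPM. The same split held in 0 of 11 myeloid and 0 of 4 mast cell markers. None of the 6 markers passed the cutoff or was at 0 in all libraries, and their part in the PLCB2 values was not tested.

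Leukocyte markers were divided in their likeness to ALOX5AP. The named genes nearest to ALOX5AP were VASH1 at 0.12, CD81 and CCND2 at 0.13, CCM2L at 0.14 and CHN1 at 0.15. None of these was on a marker list. CD14, a marker of monocytes and macrophages, was at a difference of 0.17 and rank 11 from ALOX5AP. KIT, the receptor that mast cells need, was at 0.20 and rank 20. The 4 mast cell markers with an identifier, of 6, summed to 32.7, 23.2, 7.77 and 14.3 TPM in control 1 to 4 and 8.97, 5.46, 27 and 26.9 TPM in androstenone 1 to 4. They were thus lowest in control 3, androstenone 1 and androstenone 2, the libraries in which ALOX5AP was low. Of these 4 markers, MS4A2 and KIT had all 3 of these libraries below the other 5, as did 4 of 11 myeloid and 0 of 6 lymphocyte markers and 15.6% of the genes with enough counts. The 11 of 12 myeloid markers with an identifier summed to 616, 562, 412 and 906 TPM in control 1 to 4 and 651, 603, 716 and 843 TPM in androstenone 1 to 4, so that androstenone 1 lay above control 1 and 2. CSF3R and LYZ were higher past the cutoff, and LYZ ran against ALOX5AP, at 184 and 249 CPM in androstenone 1 and 2 and at most at 104 CPM elsewhere. Their part in the ALOX5AP values was not tested.

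The wider set of taste and tuft cell genes held 56 further genes, of which 51 were tested. Among these, 0 were higher and 6 lower past the cutoff of edgeR's quasi-likelihood test, against 2.04% and 4.38% of all genes. The 6 were 2 of 12 signalling genes, 2 of 10 bitter receptors, 1 of 8 regulators and 1 of 9 effector and receptor genes, with 0 of 12 genes of cell structure and adaptors. The fitted log2 fold change was above 0 in 21 and below 0 in 30, with a median of -0.17 against -0.02 over all genes. PIK3R5, of the structure and adaptor group, was higher without overlap of the groups in CPM, as 6.53% of all genes were without overlap. Its log2 fold change of 0.69 (SE 0.17; edgeR, adjusted p = 0.393) was below the cutoff. Of the 10 bitter receptors tested, 8 had a fitted fold change below 0, most of them from few counts, and their summed level was 1.7 to 4.41 TPM in the control libraries and 0.655 to 2.05 TPM in the androstenone libraries. TAS2R16 alone made up 4 of the 4.41 TPM in control 3. In control 1 the sum of 1.86 TPM came from TAS2R3, TAS2R4, TAS2R16 and TAS2R41, with 1 count each. The 3 of 4 ionocyte markers with an identifier summed to 14 to 147 TPM in the control libraries and 26.9 to 54.3 TPM in the androstenone libraries. ATP6V0D2 was lower past the cutoff and made up 134 of the 147 TPM in control 4. FOXI1 and CFTR did not share this peak. In control 4 FOXI1 was at its lowest, 4.5 TPM, and CFTR at 8.76 TPM, below its mean of 20.3 TPM. Their log2 fold changes of 0.52 and 0.57 did not pass. The sum in control 4 thus does not stand for the ionocyte list as a whole, and the cells behind ATP6V0D2 were not tested. CALHM1, FFAR3, TSLP and IRAG2 matched no identifier, and TAS2R7 had no count in any library.

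Of the 6 genes that were lower, 3 rested on a few reads. The bitter receptor gene TAS2R4 had 1, 10, 4 and 7 counts in control 1 to 4 and 1, 0, 0 and 1 in androstenone 1 to 4, and its groups did not overlap in CPM. The ratio of pooled counts, scaled to total counts, was 15 (95% interval 3.69 to 132, counting error only; edgeR, adjusted p = 0.378). CHAT, which makes acetylcholine, had 0, 14, 8 and 0 counts against 0, 0, 1 and 0, so that it was seen in 2 of 4 control libraries and the ratio was 30.1 (95% interval 4.86 to 1240; edgeR, adjusted p = 0.411). TAS2R10 had 0, 0, 3 and 5 counts against none, which made it at least 3.64-fold lower with 3 counts over the group as the floor, and at least 2.33-fold by the 95% interval of the counts (edgeR, adjusted p = 0.421). Its call was lost with any library but control 2 left out. Both CHAT and TAS2R10 were counted in only 2 of the 4 control libraries.

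The other 3 had more reads, but their calls depended on single libraries. GNB3, the G protein beta subunit of the taste cascade, lay at 2.05, 4.28, 0.49 and 10.2 CPM in control 1 to 4 and 0.272, 0.349, 1.17 and 1.32 CPM in androstenone 1 to 4. Its log2 fold change of -2.47 (SE 0.91; edgeR, adjusted p = 0.416) lost its call without control 4, where it was -1.55, and without androstenone 1 or androstenone 2. ADCY8, a calcium-stimulated adenylyl cyclase, lay at 8.83, 30.8, 8.61 and 3.65 CPM against 5.79, 5.77, 3.36 and 2.21 CPM. Its log2 fold change of -1.61 (SE 0.64; edgeR, adjusted p = 0.423) lost its call without control 2, androstenone 3 or androstenone 4, and was -0.71 without control 2. SOX9, a progenitor cell and gland regulator, lay at 9.65, 28.1, 5.04 and 17.7 CPM against 5.24, 4.28, 7.44 and 7.28 CPM. Its log2 fold change of -1.33 (SE 0.50; edgeR, adjusted p = 0.416) lost its call without control 2, where it was -0.84, and without control 4, androstenone 1 or androstenone 2. The groups overlapped in GNB3, ADCY8 and SOX9.

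The most abundant gene of each group of companions did not pass the cutoff with all 8 libraries. GNB1, the widely used G protein beta subunit, was at 174 TPM over the 8 libraries with a log2 fold change of 0.12, and KRT8, a keratin of simple epithelia, at 782 TPM with 0.84. Without control 3, KRT8 passed the cutoff with 1.28. POU2AF3, a partner protein of POU2F3, was at 102 TPM with -0.24, far above the level of POU2F3 itself, and 0.34 without control 3. IL13RA1, a receptor chain for the cytokines that expand tuft cells in the gut, was at 57 TPM with 0.37. TAS2R16, a bitter receptor, was at 1.19 TPM with -0.35, and 1.19 on the log2 scale without control 3.

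**Figure D4:**
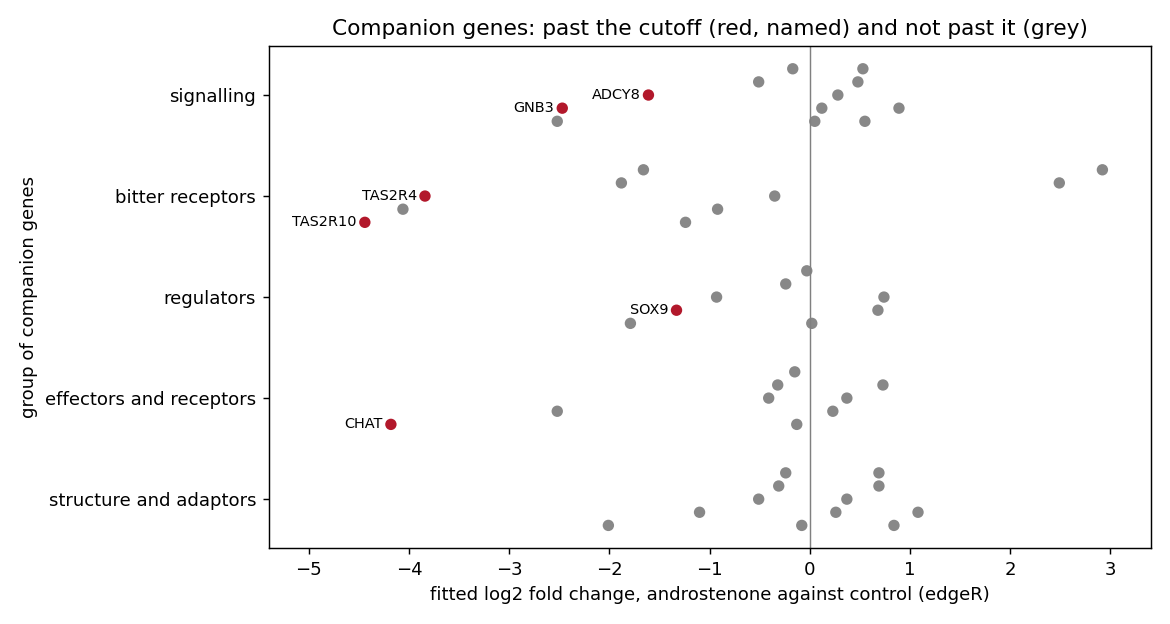
Fitted log2 fold change, androstenone against control, of the 51 companion genes tested, in 5 groups by role, with genes past the cutoff in red with their names and the others in grey. The 6 named genes all lie below 0, and TAS2R4, TAS2R10 and CHAT had at most 22 counts in either group, so that their position depends on the prior count of the fit.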

How the data were processed

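Total RNA of the OE was sequenced in 8 libraries made with a NEBNext Ultra kit. Per the labels and the methods, the authors trimmed with fastp 0.23.1 and then ran kallisto 0.48.0 against the Ensembl transcripts of Sscrofa11.1. They deposited estimated counts, which can be fractional and are not normalized. The authors also deposited TPM values, scaled by transcript length and by library. The step from transcripts to genes is not described in the sources used here.

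After rounding, the 21318 genes with at least 1 count entered edgeR 4.0.16 in R 4.3.3 (TMM, quasi-likelihood test, treatment as the sole term), with Benjamini-Hochberg adjustment over all genes tested. SE is the log2 fold change divided by the root of F. Symbols matched 15527 identifiers, and coordinates are those of RefSeq for Sscrofa11.1. Patterns used log2 CPM with a prior count of 2 for 18360 genes that passed filterByExpr. Count ratios have 95% exact intervals (scipy 1.17.1). Deposited counts summed to 4178330 in control 1 and to at least 81580146 elsewhere.

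The 10 genes, the companion and marker lists and the tests were chosen with earlier results of these data known. The genes named are all 10 genes of the set, each companion gene past the cutoff, the most abundant companion of each group, the 5 genes most like TRPM5 and POU2F3, and the markers on which a value turns. GFI1B, PIK3R5 and the genes most like PLCB2 and ALOX5AP fell outside this rule and were chosen after their values were seen. So were the counts of markers that share a split of libraries. Alternatives were the likelihood ratio test, DESeq2 1.42.0, limma 3.58.1 (voom, and log2 of TPM with a pseudocount of 0.1 or 1), RLE factors, library size only, filterByExpr, a minimum mean of 0.1 TPM, the replicate number as a block, a p below 0.01 and each library left out. Leaving out androstenone 1 and 2 together was added after the values were seen. The fits were tested on simulated data. A search for the octamer motif in promoters was planned and not run.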

Additional observations from a re-analysis of the deposited data

Results flagged for a closer look

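For the 19 genes of the set and its companions that were named by rule, 37 groups of 4 libraries were examined. In 3 of them a library's distance from the others exceeded the value of Dixon's test, where chance gives about 1 in 20 groups. ALOX5AP was at 1.97 CPM in control 3, far below the other control libraries, with a gap of 0.922 of the group's range. TAS2R16 was at 1.76 CPM in control 3, above the other control libraries, with a gap of 0.93 of the range. CHAT was at 0.0111 CPM in androstenone 3, from 1 count, with no count in the other androstenone libraries. With every other library of the group at 0, any count gives a gap of the whole range. This flag therefore says nothing beyond that 1 count.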

How the results depend on the processing

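No gene of the set passed adjustment under any alternative run. At the cutoff, TRPM5 was called with the likelihood ratio test and with DESeq2 (1 of 8 genes each, against 0), and the number called was 0 to 1 with each library left out in turn. Of 152 fold changes of the 8 genes under 19 alternatives, 129 kept their direction and their side of the cutoff, 4 passed it, all of TRPM5, and 19 changed sign. POU2F3 was -0.02 on log2(TPM + 0.1) and on log2(TPM + 1), with and without the TPM minimum, and TAS1R3 was 0.04 with voom. With each library left out, ALOX5 ranged from -0.01 to 0.39, PLCB2 from -0.43 to 0.13, POU2F3 from -0.10 to 0.26, TAS1R3 from -0.24 to 0.08, TRPM5 from 0.77 to 1.88, GNAT3 from 0.03 to 0.71, ALOX5AP from -0.50 to -0.03 and AVIL from -0.49 to -0.11. Without androstenone 1 and 2, TRPM5 was -0.46, GNAT3 -0.42, POU2F3 -0.29, PLCB2 0.27 and ALOX5AP 0.19. POU2AF3 was 0.08 with voom and TAS2R16 0.08, TAS2R16 was 0.18 on log2(TPM + 0.1), and with each library left out they ranged from -0.49 to 0.34 and from -0.69 to 1.19. The causes were not tested.

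Of the companion genes, 6 at first, the cutoff called 10 with the likelihood ratio test, 3 with voom, 3 after filterByExpr, 0 on log2(TPM + 1), 1 on that scale with the TPM minimum, and 3 to 10 with each library left out (3 without control 4 or androstenone 1, 10 without control 3). Of all genes, 1368 at first, it called 731 on log2(TPM + 0.1), 298 on log2(TPM + 1), 335 with the TPM minimum, 813 without androstenone 1 and 2, 368 at a p below 0.01, and 867 (without androstenone 1) to 2414 (without control 3) with each library left out.

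With the replicate number as a block (replicate block), the calls were 583 of all genes, 2 companion genes and 0 of the 8 genes, TRPM5 was 0.91, POU2AF3 0.02 and TAS2R16 0.28. The groups came from different sows, so the numbers could not pair animals across them. Deviations of the libraries that share a number correlated with r of -0.0356, -0.498, -0.598 and 0.173, and 0 of 8 libraries correlated best with their own number. With so few libraries per group, these values cannot show whether a number stands for a side of the nose or a batch. The low count total of control 1 limits GNAT3, TRPM5 and the bitter receptors most, since this library held 1 count or none for several of them.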
